A study of Homo sapiens with 93 samples.

Results

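The H3K36me3 level of 10 genes of glucose breakdown was followed in profiles of 93 human lymphoblastoid cell lines. They encode 9 glycolytic enzymes, HK1, HK2, GPI, PFKL, PFKP, ALDOA, GAPDH, ENO1 and PKM, and lactate dehydrogenase A, LDHA. The genes were chosen by Ensembl identifier, before the version number, and all 10 were among the 14000 features counted. Lymphoblastoid lines are B cells that Epstein-Barr virus has made immortal. The mark was profiled by CUT&Tag, in which an antibody brings a transposase to chromatin and the cut DNA is sequenced. All libraries belong to 1 group with 1 library per line, and no treatment is named in the labels. The lines grew in medium with 20% serum, in 4 batches that the labels do not tie to lines, and 100000 cells were frozen for each assay. Differences between lines therefore hold genetic, culture, batch and technical differences together, and these cannot be told apart.

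H3K36me3, trimethylation of lysine 36 on histone H3, is written by SETD2 on the elongating RNA polymerase II and builds up over the bodies of transcribed genes. Glycolysis turns glucose into pyruvate. Its first steps, from hexokinase to aldolase, spend ATP and split the sugar, and its later steps, from GAPDH to pyruvate kinase, return ATP and NADH. LDHA then makes lactate from pyruvate and restores NAD. Proliferating B cells, including those transformed by the virus, are known for a high glycolytic rate.

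Levels of the 10 genes were mostly positively correlated across lines, in 2 overlapping groups, though HK1 and GAPDH had r = 0.00611. Upstream DNA of 4 of the genes is shown here because they stand at the ends of that pattern. LDHA and ENO1 were among the most alike, and PFKL and HK1 were the least like them. Sequences are from RefSeq (GRCh38.p14), which had promoter entries for all 10 genes; hg38, named in the submitters' processing notes, is the same build. Capitals mark ACGTG or GCGTG on either strand, the core letters of the elements that hypoxia-inducible factors bind; ACGTG overlaps the E-box CACGTG. The counts cover features named by gene and say nothing of a factor at these sites.
LDHA, 250 bases before its first listed start, chr11:18394313-18394562, plus strand: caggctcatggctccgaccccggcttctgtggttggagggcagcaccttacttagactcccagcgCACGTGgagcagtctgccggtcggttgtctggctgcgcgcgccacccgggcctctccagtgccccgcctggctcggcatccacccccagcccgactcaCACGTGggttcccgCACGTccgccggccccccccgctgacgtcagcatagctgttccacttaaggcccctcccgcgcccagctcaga
ENO1, 250 bases before its start, chr1:8878687-8878936, minus strand: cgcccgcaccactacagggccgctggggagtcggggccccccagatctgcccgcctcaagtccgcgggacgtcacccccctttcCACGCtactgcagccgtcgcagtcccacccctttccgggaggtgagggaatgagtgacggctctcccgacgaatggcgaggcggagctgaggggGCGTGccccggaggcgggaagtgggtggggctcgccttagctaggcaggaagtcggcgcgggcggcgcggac
PFKL, 250 bases before its start, chr21:44299803-44300052, plus strand: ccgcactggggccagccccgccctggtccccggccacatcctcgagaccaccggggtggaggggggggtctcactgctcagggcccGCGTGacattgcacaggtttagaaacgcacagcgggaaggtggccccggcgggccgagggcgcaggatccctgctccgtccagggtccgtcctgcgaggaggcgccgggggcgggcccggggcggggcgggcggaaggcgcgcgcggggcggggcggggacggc
HK1, 250 bases before its first listed start, chr10:69269750-69269999, plus strand: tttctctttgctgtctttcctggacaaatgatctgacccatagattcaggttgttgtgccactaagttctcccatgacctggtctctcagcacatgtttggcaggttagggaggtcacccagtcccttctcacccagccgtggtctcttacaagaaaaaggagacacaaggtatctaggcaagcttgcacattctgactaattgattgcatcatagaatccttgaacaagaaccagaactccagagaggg

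The LDHA stretch held 5 matches in 250 bases, counted on both strands, so that each CACGTG counts on both. That of ENO1 held 2, that of PFKL held 1 and that of HK1 held 0. The stretches also differ in base composition, with G or C at 69.6% of bases for LDHA, 72% for ENO1, 78% for PFKL and 46.8% for HK1. Match counts were not adjusted for it. LDHA has 2 listed starts and HK1 has 7: the second LDHA stretch held 1 match, and among the other 6 HK1 stretches the one at start 6 held 1 and the rest held 0. The ENO1 stretch also lies in the annotated antisense gene ENO1-AS1. Over all listed starts, 14 of 23 promoters of the members held ACGTG or GCGTG, against 43.2% of 35116 RefSeq promoters, and 4 of the 23 (1 each of HK2, ALDOA, GAPDH and LDHA) held CACGTG, against 6.34% of all promoters. PKM, which moved closely with LDHA and ENO1, had no match at its 1 listed start. Members differ in their number of listed starts, from 1 to 7, so these counts are a description only.

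Library totals ran from 2842955 to 24325746 counts with a median of 14883653, and no pair of libraries agreed within sampling noise (lowest chi-square per degree of freedom 5.88 over 4278 pairs). The members were deeply covered: the median count over lines ran from 615 for GAPDH to 4790 for PFKP, and the lowest count of any member in any line was 108. Levels are given as CPM, the count scaled to a fixed library total after TMM adjustment. To compare genes, CPM was divided by the length of the gene's RefSeq span in kilobases; no source used here gives the counted interval, so levels between genes hold only as far as it matches that span.

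A drop in counts that runs through one stretch of the table touches 2 members. The members' rows lie in the order of chromosome name, read as text, and start. In the rows after 1900 up to 3200, a search placed a fall in each library, with a median size of 0.87 on the log2 scale. Its row differed between libraries, from 2017 to 3047. The search allows no library without a fall, so it cannot tell whether each library has one. LDHA (row 2219, chromosome 11) and GAPDH (row 2940, chromosome 12) lie in that stretch. The drop came before the LDHA row in 3 libraries and before the GAPDH row in 89, so results on both are also given without the libraries in the smaller class.

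The 2 hexokinases among the members, which trap glucose in the cell as glucose-6-phosphate, were steady across lines. HK1 (ENSG00000156515, chr10:69270000-69401882), the widely expressed form, had a lowest, median and highest level of 206, 267 and 326 CPM. HK2 (ENSG00000159399, chr2:74834127-74893359), the form induced in many growing cells, had 124, 211 and 273 CPM. No line lay more than 1.5 times above the median of either gene, and 1 line lay that far below it, for HK2. Coefficients of variation between lines were 0.104 for HK1 and 0.121 for HK2, where counting error alone would give 0.0187 and 0.0213; 97.1% and 91.7% of features tested varied more.

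The 2 phosphofructokinases among the members, which carry out the committed step, both had counts in each line. PFKL (ENSG00000141959, chr21:44300053-44327373), the liver form, had 47.8, 87.2 and 123 CPM, and PFKP (ENSG00000067057, chr10:3067548-3136805), the platelet form, had 212, 347 and 421 CPM. PFKL spread more widely over lines, with a coefficient of variation of 0.181 against 0.13, but this fell to 0.123 in the 47 deeper libraries. GPI (ENSG00000105220, chr19:34359718-34402413), the isomerase between the hexokinase and phosphofructokinase steps, had 178, 269 and 378 CPM. These 5 early genes thus differed at most 2.57-fold between the lowest and the highest line.

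ALDOA (ENSG00000149925, chr16:30064279-30070420), the aldolase that splits the 6-carbon sugar, had 33.2, 61 and 100.3 CPM. GAPDH (ENSG00000111640, chr12:6534517-6538371), which makes the first NADH, had 21.9, 46.8 and 107 CPM. ENO1 (ENSG00000074800, chr1:8861000-8878686), the enolase that makes phosphoenolpyruvate, had 129.5, 246 and 393 CPM. The lines lay further apart for these 3 genes than for the early ones: the highest line was 3.02 times the lowest for ALDOA, 4.88 times for GAPDH and 3.04 times for ENO1. PKM (ENSG00000067225, chr15:72199029-72231591), pyruvate kinase, whose M1 and M2 forms come from alternative splicing and are not separated here, had 125, 205 and 297 CPM, a 2.38-fold range. LDHA (ENSG00000134333, chr11:18394563-18408425) had 34.7, 125 and 247 CPM and the widest range, 7.11-fold, with 15 lines more than 1.5 times below its median and 5 more than 1.5 times above it.

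Part of the LDHA and GAPDH ranges lay in the libraries set apart by the drop. In the 3 libraries whose drop came before the LDHA row, LDHA stood at 34.7 to 54.4 CPM; in the other 90 it ran from 48.8 to 247 CPM, and its coefficient of variation was 0.297 against 0.321 in all. In the 4 libraries whose drop came after the GAPDH row, GAPDH stood at 66.9 to 107 CPM; in the other 89 it ran from 21.9 to 77.6 CPM, with a coefficient of variation of 0.254 against 0.302. Each pair of classes overlaps in level.

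**Figure D1:**
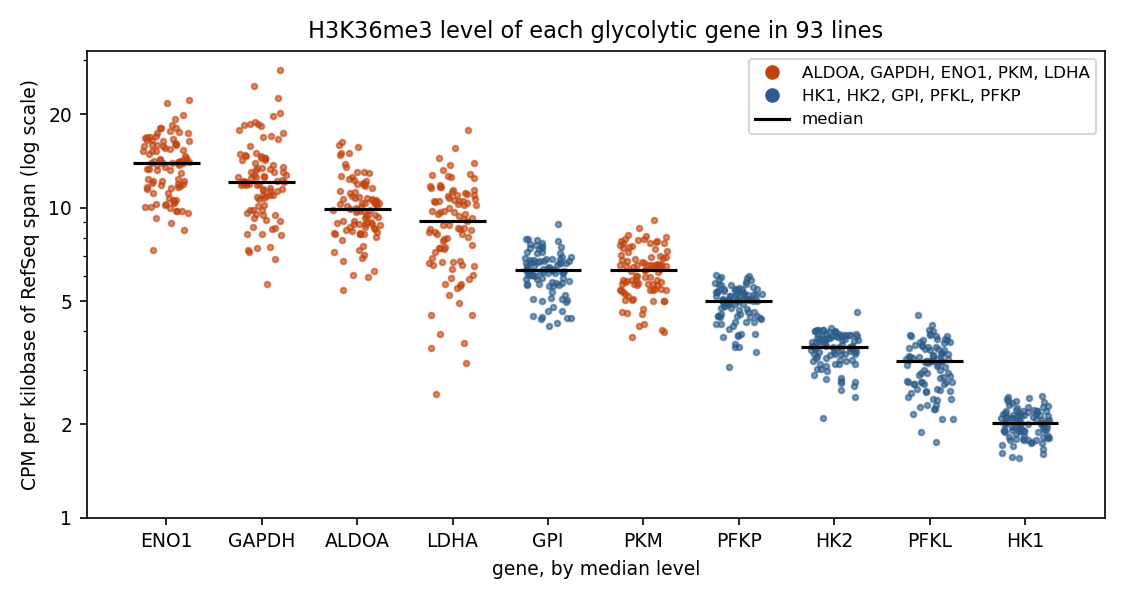
H3K36me3 level of the 10 genes, as CPM per kilobase of RefSeq span on a log axis, with 1 point for each of 93 lines and a black bar at the median. Medians fall from 13.9 for ENO1 to 2.03 for HK1, and LDHA and GAPDH spread most between lines.

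Per kilobase, ENO1, GAPDH, ALDOA and LDHA stood highest. These genes also have the shortest spans among the members, from 3.86 kb for GAPDH to 17.7 kb for ENO1. The other spans ran from 27.3 kb for PFKL to 132 kb for HK1. By median CPM without division by length, PFKP stood highest and GAPDH lowest. How far the ranking per kilobase follows span was not tested. Median levels were 13.9 CPM per kilobase for ENO1, 12.1 for GAPDH, 9.93 for ALDOA and 9.04 for LDHA, then 6.31 for GPI, 6.30 for PKM and 5.01 for PFKP, and last 3.56 for HK2, 3.19 for PFKL and 2.03 for HK1. Most neighbours in this order did not differ beyond their spread, taken as a mean difference of at least 2 SD over lines. The exceptions were PFKP over HK2, by 0.48 ± 0.15 log2 (SD, n = 93; higher in 93 of 93 lines), and PFKL over HK1, by 0.60 ± 0.23 log2 (92 of 93 lines). The distance of PFKL over HK1 rests on the HK1 span, described below. GPI and PKM could not be ordered: GPI was higher in 48 of 93 lines.

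Per kilobase, isozymes of the same step differed in level in each line. HK1 lay below HK2 (mean difference -0.80 ± 0.17 log2 CPM per kilobase, SD, n = 93), in 93 of 93 lines. PFKL lay below PFKP (mean difference -0.67 ± 0.24 log2), also in 93 of 93. The mean of GAPDH, ENO1 and PKM lay 1.23 ± 0.23 log2 above the mean of the 6 genes from hexokinase to aldolase, in 93 of 93 lines. The lengths are the same for each line, so an error in them would shift all 93 lines alike. The HK1 span of 132 kb runs from about the first of its 7 listed starts. The stretch before start 6 ends at chr10:69319063, well inside that span. A span taken from a later start would raise HK1 per kilobase and bring it nearer to HK2 and PFKL. Which start the lines use was not tested. Without division by length, HK1 lay above HK2 by 0.36 log2 and the difference between later and earlier genes was -0.38 log2.

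Of the 10 genes, 3 varied more between lines than the trend of features with the same mean count: LDHA, GAPDH and ENO1. Over all features 18.6% passed this test (edgeR's deviance goodness-of-fit test on the trended dispersion, with library total and dynamic range in the model) and the 3 of 10 members are read beside that share, not as a result about the list. Dynamic range, a measure of a library's contrast, is the gap in median log2 CPM between the highest and the lowest quintile of features, ranked by their mean. The dispersion of LDHA lay 1.63 log2 above the trend (edgeR, adjusted p = 8.46e-21), that of GAPDH 1.15 (adjusted p = 4.8e-09) and that of ENO1 0.47 (adjusted p = 0.0368). ALDOA, at 0.35, missed the threshold (edgeR, adjusted p = 0.169), and the early genes HK1, HK2, GPI, PFKL and PFKP lay below the trend, from -0.72 for GPI to -1.30 for PFKL. The median over the 10 members was -0.44, against -0.51 over all features.

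These calls differed in firmness. GAPDH and LDHA passed in each edgeR fit that held them, the one with counts corrected for the drop included. GAPDH lay close to the threshold with 10 principal components in the model (edgeR, adjusted p = 0.0474). ENO1 missed the threshold with the 10 shallowest libraries left out (edgeR, adjusted p = 0.081), in either depth class (0.596 and 0.832), with no covariates (0.306), and with principal components or the row of the drop in the model. DESeq2's stricter dispersion outliers, 1.83% of features, held none of the 10.

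Across lines all 45 pairs of the 10 genes had a correlation above 0, as did 51% of all feature pairs (0 or above). With library total and dynamic range removed from log2 CPM, the mean Pearson correlation over the 45 pairs of members was 0.489, against 0.00976 for all pairs of features at least 20 rows apart (SD 0.22). Of the 45 pairs, 23 (51.1%) had a correlation of at least 0.5, against 1.88% of all pairs, and 10 (22.2%) had at least 0.7, against 0.252%. Correlations here are over 93 lines that share the normalization of the table, and they are given as descriptions. The feature pairs are of all levels and were not matched to the members. Among members, from 1.71% (PFKP) to 46.4% (GAPDH) of features had a higher median CPM. On the deposited scores, the authors' second table, the mean over members was 0.48, and 3 of the 45 pairs were below 0: PFKL with LDHA (-0.145), HK1 with LDHA (-0.06) and HK1 with ENO1 (-0.0202). HK1 and GAPDH, at 0.00611, had a rho of -0.036 and a correlation of -0.0136 with counts corrected for the drop.

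**Figure D2:**
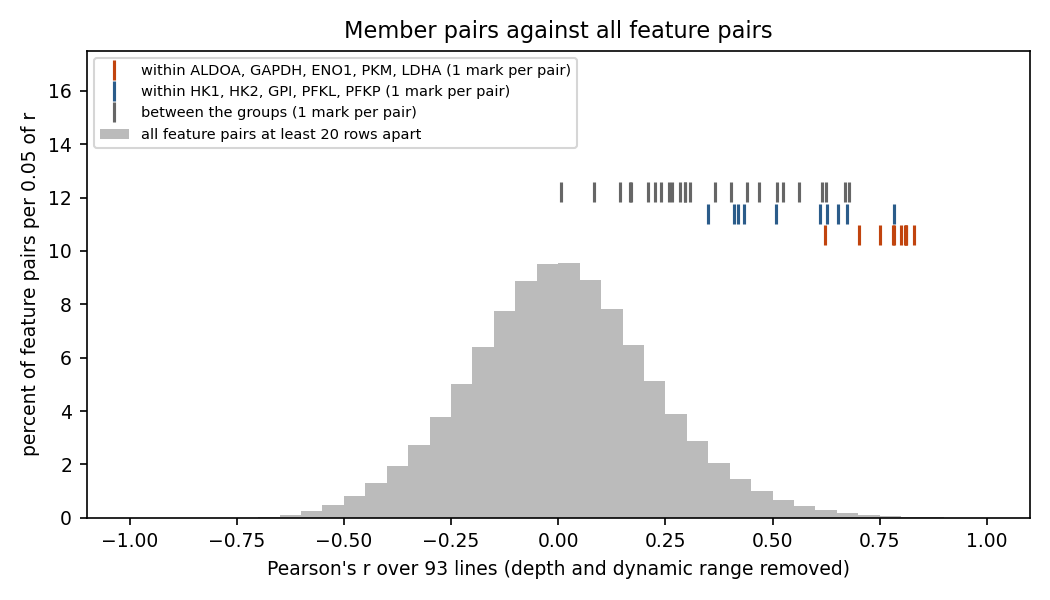
Pearson correlations over 93 lines of all feature pairs at least 20 rows apart (grey bars, percent of pairs in each class of 0.05) and of the 45 member pairs (1 mark each, set above the bars at arbitrary heights by group). Marks of the later group lie from 0.623 to 0.831, far right of the bulk of all pairs.

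By these correlations there was a later group, ALDOA, GAPDH, ENO1, PKM and LDHA, and an earlier group, HK1, HK2, GPI, PFKL and PFKP, a division made after the values were seen. Within the later group the 10 correlations ran from 0.623 to 0.831 with a mean of 0.77. Within the earlier group they ran from 0.349 to 0.784 with a mean of 0.547, and between the groups from 0.00611 to 0.679 with a mean of 0.353. By the textbook phases, the 3 pairs among GAPDH, ENO1 and PKM had a mean of 0.771 and the 15 pairs from hexokinase to aldolase 0.505; ALDOA, placed with the early steps by its role, had 0.781 to 0.831 with the later genes and 0.168 to 0.679 with the earlier ones.

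**Figure D3:**
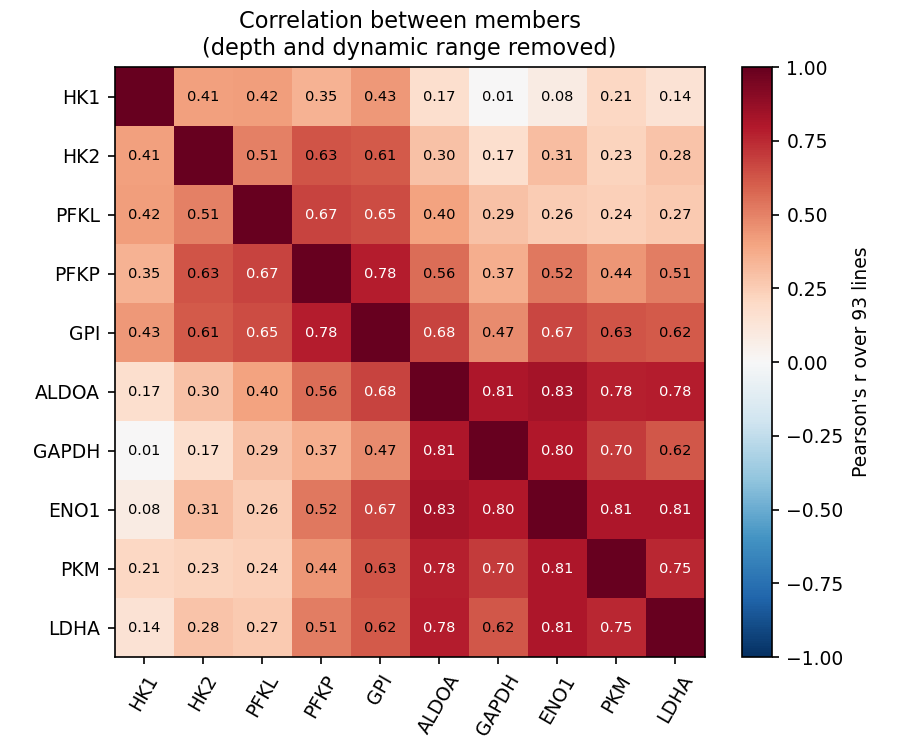
Pearson correlation between each pair of members over 93 lines, after removing library total and dynamic range (colour scale from -1 to 1). ALDOA to LDHA form a block of high values, the hexokinases and phosphofructokinases a looser one, and GPI joins both.

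The single pairs show how close the match was. ALDOA and ENO1 had r = 0.831 (rho = 0.82, and r = 0.824 without the 2 lines whose ALDOA lay farthest from its median), ENO1 and PKM had r = 0.812 (rho = 0.797, and 0.809 without the 2 lines farthest in ENO1) and ENO1 and LDHA had r = 0.809 (rho = 0.86, and 0.798 without the same 2). These 4 genes lie on 4 chromosomes. GAPDH and ENO1 had r = 0.799 (rho = 0.798). ENO1 and LDHA had 0.835 in the 90 libraries whose drop came after LDHA, and ENO1 and GAPDH 0.808 in the 89 whose drop came before GAPDH. HK1 stood apart from the later genes, with r = 0.0841 to ENO1 and 0.00611 to GAPDH.

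Isozymes had lower correlations with each other than some pairs from different steps. HK1 and HK2 had r = 0.411 (rho = 0.411) and PFKL and PFKP had r = 0.674 (rho = 0.656). GPI and PFKP, on chromosomes 19 and 10, reached r = 0.784 (rho = 0.729), and HK2 and PFKP r = 0.628 (rho = 0.661). Whether these correlations differ from each other was not tested.

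**Figure D4:**
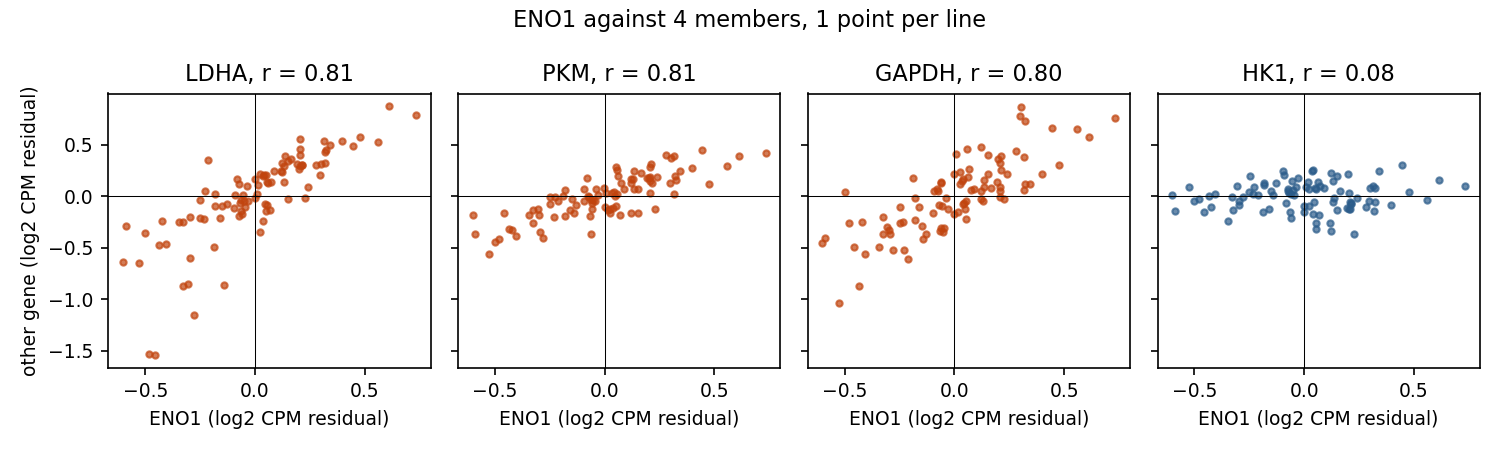
Log2 CPM of LDHA, PKM, GAPDH and HK1 against ENO1 after removing library total and dynamic range, with 1 point for each of 93 lines. The first 3 rise with ENO1, and HK1 shows r = 0.0841.

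Ranked among all features at least 20 rows away, members were often each other's nearest pattern. GPI and PFKP were each other's closest of 13876 features. ENO1 was the closest to PKM and to LDHA, and PFKP was the closest to HK2. Thus 5 of 10 members had another member as their closest feature. For the other 5 the closest feature was not a member, and no table used here pairs its identifier with a name. It was ENSG00000103653.16 for ALDOA (r = 0.873) and ENSG00000277957.1 for GAPDH (r = 0.844), and its r was 0.841 for ENO1, 0.717 for PFKL and 0.585 for HK1. Close partners were common for the later genes: 9.58% of partners had r over 0.5 with ALDOA and 9.27% with ENO1, against 0.0216% with HK1 and 0.195% with HK2.

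Reads of overlapping genes may be shared. The row before ALDOA had r = 0.975 with it, and RefSeq places LOC112694756 over ALDOA, so counts of these may not be separable. The row before LDHA had r = 0.811, but RefSeq places no other gene over LDHA. That pair of rows lies in the stretch with the drop. HK1, PFKP and ENO1 also contain or overlap a short gene in RefSeq (RPS15AP28, SNORD142 and MIR6728). GAPDH has 65 numbered pseudogenes in RefSeq and LDHA has 6, and no source used here says how reads that match a copy were treated.

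Several genes were low in the same libraries. Of the 10 lowest lines in CPM for each later gene, 2 lines were among the lowest for all 5 genes and 7 for at least 4, with 18 lines in any list. At the top, 0 lines were among the 10 highest for all 5 later genes and 3 were for at least 4, with 22 in any list. In the earlier group 2 lines were among the lowest for all 5 genes and 1 among the highest for all 5. These ranks are of CPM, with no adjustment for library total, dynamic range or the row of the drop. That row moved with 9 of 10 members, as given below. No like count was made for other sets of features, so these counts describe the members only.

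The later genes also followed the axis on which the libraries as a whole differed most. The first principal component of all features held 30.3% of the variance, and its absolute correlation with the members was 0.828 for PKM, 0.805 for ENO1, 0.751 for LDHA, 0.747 for ALDOA and 0.729 for GAPDH. The earlier genes followed it less, from 0.679 for PFKP to 0.122 for HK1. PFKL followed the second component instead (0.851). With 10 components removed, the mean correlation over member pairs was 0.245, with 0.32 in the later group and 0.364 in the earlier one, against 0.00545 over feature pairs.

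The row at which a library drops moved with the members too. Libraries whose drop lay further down the table had higher levels of 9 of 10 members, HK1 being the exception (edgeR's quasi-likelihood test, adjusted p = 0.101), against 32.4% of all features, and 0 had lower levels, against 26.9%. This held for genes far from that stretch: per SD of that row, ALDOA rose by 0.26 ± 0.03 log2 (SE; edgeR, adjusted p = 6.27e-13) and ENO1 by 0.25 ± 0.03 (adjusted p = 9.23e-12). The correlation of ALDOA with the row was 0.691, and 0.489% of features had a higher one. With the row in the model, the mean correlation over member pairs was 0.315, with 0.606 in the later group, 0.484 in the earlier group and 0.131 between them. With counts corrected for the drop in each library, the mean was 0.492. The row itself had an absolute correlation of 0.728 with the first principal component and 0.405 with the log2 library total. Its part in the members' correlations beyond these values was not tested.

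**Figure D5:**
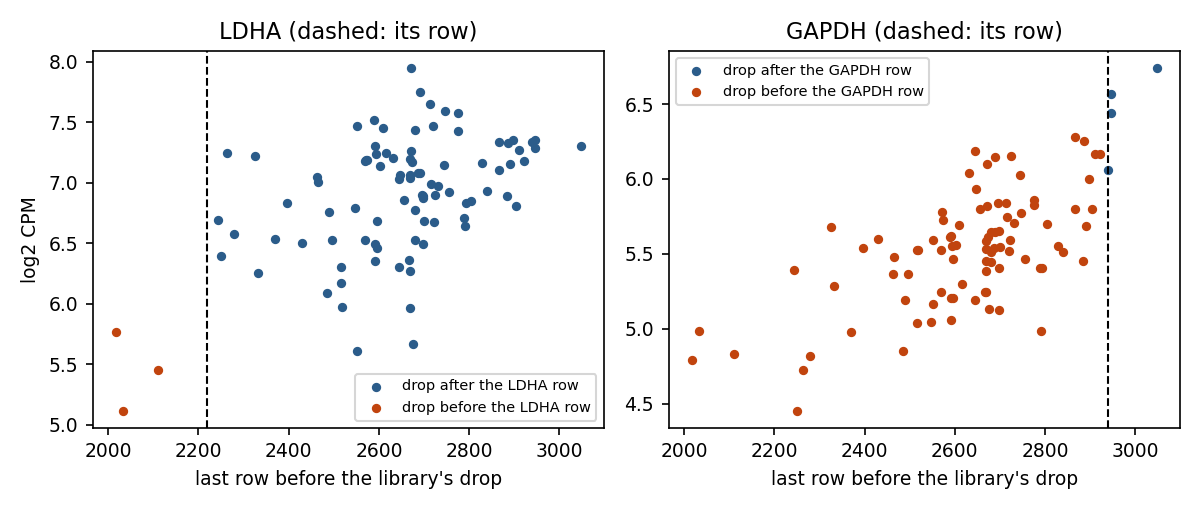
Log2 CPM of LDHA (left) and GAPDH (right) in 93 libraries against the last table row before each library's drop, with the gene's own row as a dashed line. LDHA is low in the 3 libraries whose drop comes before its row, GAPDH is high in the 4 whose drop comes after its row, and both rise with the row among the other libraries (r = 0.357 and 0.636).

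The contrast and depth of a library were related to most members. Per SD of dynamic range (0.173 log2), 9 of 10 members were higher, against 40.4% of all features, and 0 were lower, against 38% (edgeR's quasi-likelihood test; HK1 missed the threshold). LDHA rose by 0.26 ± 0.05 log2 (SE; edgeR, adjusted p = 2.05e-06), GAPDH by 0.24 ± 0.04 (adjusted p = 1.76e-07) and ENO1 by 0.19 ± 0.03 (adjusted p = 2.5e-07). HK1 had 0.02 ± 0.02 (edgeR, adjusted p = 0.211). The median slope was 0.15 over the members and 0.01 over all features. Dynamic range is computed from the same counts, so it describes the contrast of a library. By median CPM, PFKP, GPI, HK1, ENO1, HK2, PKM and LDHA lay in the highest quintile of features. PFKL, ALDOA and GAPDH lay below it. Dynamic range rises with the level of the highest quintile, so a positive slope is partly built in for genes of high level. The shares of all features were not matched for level. Whether the members rose more than other features of their level was not tested.

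Per doubling of the library total, 8 of 10 members were higher, against 25.4% of all features, and 0 were lower, against 42%. PFKL rose most among the members, by 0.31 ± 0.02 log2 (SE; edgeR's quasi-likelihood test, adjusted p = 1.5e-21), and GPI rose by 0.20 ± 0.03 (adjusted p = 2.32e-10). ENO1 (0.03 ± 0.04, adjusted p = 0.443) and LDHA (-0.08 ± 0.06, adjusted p = 0.199) missed the threshold. LDHA did pass as lower in 3 other edgeR fits: its slope was -0.18 without the 10 shallowest libraries (adjusted p = 0.00877), -0.12 with counts corrected for the drop (adjusted p = 0.0309) and -0.22 with library total alone in the model (adjusted p = 0.000557). In those fits 7, 7 and 4 members rose. These slopes are of levels already divided by the total.

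Lastly, the first and the last enzyme of glycolysis, HK1 and PKM, were each used as a predictor of the other members, a choice made after their values were seen. Per SD of HK1, 3 of 9 members rose (edgeR's quasi-likelihood test), against 1.01% of all features, and 0 fell, against 0.424%. They were GPI (0.076 ± 0.017 log2, SE, adjusted p = 0.00597), PFKL (0.063 ± 0.014, adjusted p = 0.0101) and HK2 (0.063 ± 0.015, adjusted p = 0.0163), all of the early steps. PFKP had 0.054 ± 0.016 (edgeR, adjusted p = 0.0579). In either depth class alone 0 of 9 passed (edgeR; at an unadjusted p under 0.05, 2 passed in the 46 shallower libraries and 4 in the 47 deeper ones).

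Per SD of PKM, 8 of 9 members rose, against 31.7% of all features, and 0 fell, against 30%. LDHA rose by 0.31 ± 0.03 log2 (SE; edgeR's quasi-likelihood test, adjusted p = 2.18e-15), GAPDH by 0.25 ± 0.03 (adjusted p = 6.37e-13), ENO1 by 0.22 ± 0.02 (adjusted p = 6.45e-19) and ALDOA by 0.21 ± 0.02 (adjusted p = 7.02e-17). GPI rose by 0.11 ± 0.01 (edgeR, adjusted p = 2.61e-10), and PFKP, HK2 and PFKL by 0.069, 0.038 and 0.037. HK1 missed the threshold (0.03 ± 0.01, adjusted p = 0.065). With the row of the drop in the model 5 of 9 passed, GPI, ALDOA, GAPDH, ENO1 and LDHA, against 16.3% of features, and with 10 principal components 0 passed (edgeR; 4 at an unadjusted p under 0.05).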

How the data were processed

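H3K36me3 CUT&Tag was measured in 93 lymphoblastoid lines, 1 library each, so p-values hold differences between lines, cultures and assays together. The deposited table holds whole-number counts per feature under Ensembl identifiers, and a second deposited table holds scores, which from their values are normal quantiles of ranks within each library; how the authors made them is not stated in the labels. HISAT2 2.2.1, bedtools and hg38 are named per the submitters' processing notes; no source used here gives the counted interval, strand use or read filters. Features reaching 10 counts in 47 or more libraries were tested (13915 of 14000) with edgeR 4.0.16 in R 4.3.3: TMM factors, log2 CPM with a prior count of 2, with dynamic range and the log2 of the library total in each model. Benjamini-Hochberg adjustment ran over all features tested, with a threshold of 0.05. DESeq2 1.42.0 was an alternative. On simulated data, 97 of 100 features with an added SD of 0.3 log2 and 61 of 100 with a slope of 0.1 log2 per SD were called, among 13911 tested.

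The members and lists were chosen with earlier results of these data known. All members are named. For each, the feature at least 20 rows away with the highest correlation is given by name where it is a member, and otherwise by its correlation, with at most 2 identifiers printed. A list of other pathway genes and a check of cell type markers were not used, since 0 identifiers could be matched to symbols in the reference table. Gene positions, spans and upstream sequences are from RefSeq GRCh38.p14. Alternatives covered normalization, filters, covariates, library subsets, the drop and gene length.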

Additional observations from a re-analysis of the deposited data

How the results depend on the processing

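Of the alternatives for the main values of the comparisons, 67 stayed near the main value (a count within 1.5 times, a mean within 1 SD), 9 moved past that and 2 reversed. For the order of levels only the number of neighbours beyond 2 SD was compared, and it was 2 with and without division by length. The order itself changed: by median CPM, PFKP stood highest and GAPDH lowest. For single genes the dispersion ratio was judged by its sign and call, and the coefficient of variation by its approximate sampling error. By these, 156 stayed the same, 2 moved, 7 reversed, 1 gained and 4 lost a call. The drop correction, the row of the drop as a covariate, the alternatives for the HK1 and PKM predictors and the depth classes for these were chosen after seeing the data. Without division by gene length, HK1 minus HK2 was 0.36, later minus earlier genes -0.376 and PFKL minus PFKP -2.02 log2. The log2 dispersion ratio of ALDOA was -0.923 with 5 principal components, -1.14 with 10 and -0.299 with the row of the drop. That of ENO1 was -0.513, -0.552 and -0.0658 in these fits, and that of PKM was 0.0282 without the rows after 1900 up to 3200. ALDOA passed there (edgeR, adjusted p = 0.0139).

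Within those bounds, the mean correlation over member pairs was 0.302 with 5 components and 0.315 with the row of the drop, 6 members rose with dynamic range in the 46 shallower libraries, and 2 in place of 3 were more variable in several fits. The mean correlation was 0.245 with 10 components. With library total alone in the model, 5 members were associated with it: 4 rose and LDHA fell. Members rising with HK1 numbered 0 in the 46 shallower libraries, 0 in the 47 deeper and 0 with 10 components (edgeR; 2, 4 and 2 at an unadjusted p under 0.05). Members rising with PKM numbered 5 with the row of the drop and 0 with 10 components (4 at an unadjusted p under 0.05). DESeq2's dispersion outliers held 0 members, against 3 by edgeR. GAPDH's coefficient of variation was 0.25 with the drop corrected. The cause of these changes was not tested.

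No paired analysis was possible because all 93 libraries form 1 group. Alternatives for other pathway genes were not run, since no table pairs their symbols with identifiers. Counting error was small beside the spread between lines for all 10 members. PFKL's coefficient of variation was 0.123 in the 47 deeper libraries, against 0.181 in all.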
